A study of Mus musculus with 12 samples.

Results

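Most CpG sites in spermatozoa are either almost free of methylation or almost fully methylated. The sites described here held an intermediate level, with little variation, in testicular and in cauda epididymal spermatozoa. They were chosen by their measured values in testis and cauda: at an autosomal site, each of the 3 testis and 3 cauda samples had to have at least 20 reads and a methylation level from 25% to 75%, and the 6 levels had to lie within a range of under 30 percentage points. This held for 233 of the 14149 sites in the count table, of which 13917 are autosomal and 9289 are autosomal with enough reads in the 6 samples, so the members made up 2.51% of the sites that could have qualified. The caput and corpus values took no part in the choice.

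Spermatozoa were isolated from testis tissue and from 3 successive segments (caput, corpus, cauda) of the epididymis, the duct in which sperm mature, and their DNA was profiled by reduced representation bisulfite sequencing (RRBS). All 12 samples, 3 per origin, came from untreated B6D2F1 mice, aged 10 to 12 weeks, that carry the transgenes CAG/su9-DsRed2 and Acr3-EGFP (line RBGS002Osb). The CAG promoter drives a red protein sent to mitochondria and the other transgene a green protein in the acrosome, and fluorescence-activated cell sorting kept the cells positive for both. By the paper's methods, cauda spermatozoa were flushed out of the duct by perfusion. Testis, caput and corpus tissue was instead cut and broken up into single cells before sorting. The paper describes the testis cells as spermatids and spermatozoa. Each sample was a pool of mice, and nothing in the labels ties the replicates to separate pools, so the p-values speak for these samples only. The paper presents its profiles as representing 3 independent experiments, but the labels do not tie those to the replicates. The p-values printed with differences come from reads summed per group and take no account of the spread between samples, which only limma and the overdispersion term use. The strain is a hybrid of C57BL/6 and DBA/2 mice.

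In mammals, methylation is added to the cytosine of CpG dinucleotides, and it is mostly settled in male germ cells before meiosis. Imprinted genes carry marks set in the egg or the sperm that persist on that parental copy in the offspring, so an imprinted control region shows an intermediate level in body cells, where both copies are present, but should lie near 0% or near full methylation in sperm. RRBS cuts DNA at CCGG and sequences the fragment ends after bisulfite has turned unmethylated cytosine into uracil, so it favours CpG-rich sequence, and the level of a site is the percentage of its reads that kept the cytosine.

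Depth differed between samples, and with it the precision of each level. The summed reads over the table ranged from 429606 in corpus replicate 1 to 1007992 in testis replicate 2. At the members, the median was 96.0, 106 and 88.0 reads per site in the testis samples, 63.0, 87.0 and 69.0 in caput, 33.0, 87.0 and 53.0 for corpus, and 89.0, 75 and 84.0 for cauda. Of the 233 members, 157 had at least 20 reads in all 12 samples. Where an interval is given below it is a 95% Wilson interval, and such intervals and the limits for a count of 0 (3 reads) cover counting error only, since PCR copies cannot be told from separate molecules.

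Caput replicate 1 stood apart from the other caput samples, and corpus replicate 1 was the shallowest library. At the members, a chi-square comparison of the reads gave 11.7 per site between caput replicates 1 and 2 and 15.2 between 1 and 3, against 5.21 between 2 and 3. In corpus the values were 6.11 for replicates 1 and 2, 4.40 for 1 and 3, and 5.08 for 2 and 3. The testis pairs gave 1.92 to 3.44 and the cauda pairs 2.11 to 3.03, although there the rule itself limited the spread. No pair differed by less than sampling noise, and the main means and counts are given with and without replicate 1 of caput and of corpus. Calls by location and in repeats, and those at named sites, are given with all samples only.

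The mean level of the members was higher in the caput samples than in the others. The mean over the 233 members was 72.3%, 60.5% and 58.2% in caput replicates 1, 2 and 3. In corpus it was 48.4%, 57.5% and 50.2%. The values used for the choice were 49.1%, 52.0% and 51.7% in testis and 50.9%, 50% and 47.6% in cauda. The group mean was thus 63.6% ± 7.56 (SD, n = 3) in caput and 52.0% ± 4.83 (SD, n = 3) in corpus, beside 51.0% ± 1.62 in testis and 49.5% ± 1.70 in cauda. Without replicate 1, the caput mean was 59.3% ± 1.66 and the corpus mean 53.8% ± 5.18. The caput samples all lay above every corpus sample, and the corpus samples overlapped with testis and cauda. Promoters of germline genes, described below, were also highest in caput, with summed levels of 62.9%, 46.1% and 47.1%, beside 19%, 12.0% and 10.5% in testis. Their part in the levels of the members was not tested.

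The rule held every testis and cauda level between 25% and 75%, so a wider spread of levels in samples outside the rule follows in part from the choice. In caput replicate 1, 138 members (59.2%) were at 80% or more, 25 (10.7%) at 20% or less and 50 (21.5%) were between 25% and 75%. In caput replicates 2 and 3, 164 and 180 members were in that band, 37 and 28 at 80% or more, and 7 and 5 at 20% or less. In corpus, 174, 200 and 188 members were in the band in replicates 1, 2 and 3, with 21, 11 and 13 at 80% or more and 26, 1 and 20 at 20% or less. Of the 6 caput and corpus samples, caput replicate 1 had the most members at 80% or more, and corpus replicate 1 and caput replicate 1 had the most at 20% or less. The standard deviation over members was 29.0, 19.7 and 18.7 points in caput and 22.8, 14.6 and 19.4 points in corpus. Another 607 sites had a mean from 25% to 75% over the testis and cauda samples but did not meet the rule, so they are a selected group too. There the standard deviation over sites was 21.5, 20.5 and 21 points in testis, 29.4, 22.6 and 24.6 in caput, 27.6, 19.2 and 24.5 in corpus, with 20.2, 21.1 and 21.2 in cauda.

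Of the 233 members, 41 (17.6%) stayed between 25% and 75% in all caput samples and 133 (57.1%) in all corpus samples. Without caput replicate 1 the caput count was 133, and without corpus replicate 1 the corpus count was 162. In all 12 samples 31 members stayed in the band, 16 of them intergenic, 10 in promoters and 5 in introns. Among the 82 members with at least 40 reads in all 12 samples, 43 were at 80% or more and 14 at 20% or less in caput replicate 1, beside 10 and 1 in caput replicate 2, 6 and 2 in caput replicate 3, 2 and 9 in corpus replicate 1, 2 and 0 in corpus replicate 2, and 1 and 6 in corpus replicate 3.

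The members that were extreme in caput replicate 1 leaned the same way in the other caput samples. The 138 members at 80% or more there had medians of 92.4% in caput replicate 1, 70.3% in replicate 2 and 66.1% in replicate 3, and of 53.9%, 63.7% and 56.4% in the corpus samples. They lay above their own testis mean at 123 and 115 members in caput replicates 2 and 3, and at 73, 117 and 82 members in corpus replicates 1, 2 and 3. The 25 members at 20% or less had medians of 8.33%, 27.2% and 32.4% in caput and 33.3%, 34.5% and 31.9% in corpus. They lay below their testis mean at 25 and 21 members in caput replicates 2 and 3, and at 22, 24 and 24 members in corpus.

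As a description across sites, the shift of each member from its cauda mean was set against its shift in caput replicate 1 from its testis mean. The fitted slope through the origin was 0.467 for caput replicate 2, 0.391 for caput replicate 3, 0.111, 0.328 and 0.158 for corpus replicates 1, 2 and 3 (Pearson r = 0.687, 0.619, 0.264, 0.681 and 0.373 over 233 sites that share libraries and, in part, loci). For the 2857 autosomal sites under 10% in all 6 testis and cauda samples the slopes were 0.455, 0.412, 0.165, 0.291 and 0.209, and for the 2732 sites above 90% they were 0.366, 0.292, 0.262, 0.185 and 0.184. In each of these classes caput replicate 2 had the steepest slope of the 5 samples.

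Sites outside the choice moved too. The 2857 low sites averaged 11.3%, 5.95% and 5.49% in caput replicates 1, 2 and 3 and 3.03%, 4.51% and 3.60% in corpus, beside at most 1.10% in any testis or cauda sample. The 2732 high sites averaged 87.1%, 92.8% and 93.9% in caput and 94.4%, 95.4% and 95.4% in corpus, beside at least 97.5% in testis and cauda. Another 607 covered autosomal sites had a mean from 25% to 75% over the 6 samples without meeting the rule, and these averaged 71.7%, 60.6% and 57.6% in caput and 48.8%, 58.4% and 50.9% in corpus. The members and these less steady intermediate sites therefore had means less than 1 point apart in every caput and corpus sample.

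Scatter between replicates was larger than read sampling alone gives. The median standard deviation of a member over the 3 samples was 13.9 points in caput and 11.1 in corpus, where sampling of the reads would give 5.34 and 7.22. In testis and cauda, where the rule limited it, it was 7.18 and 7.45 points, beside 4.95 and 5.29 from read sampling.

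Caput and corpus were compared directly, since neither took part in the choice. The test was a likelihood-ratio test in a logistic regression, with reads summed per group and p adjusted by Benjamini-Hochberg across the 14149 sites. A site was called at an adjusted p under 0.01 with more than 25 points between the groups. Of the 233 members, 30 (12.9%) were higher in caput and 0 were lower. Among all sites, 6.86% were higher in caput, 2.66% lower and 9.51% called in either direction. Of the 607 less steady intermediate sites, 98 were higher and 24 lower, 122 in all (20.1%), a larger share than of the members. The median difference over members was 11.2 points (caput minus corpus), beside 0.0 over all sites. Every caput sample lay above every corpus sample at 45 members and below at 7, where over all sites this held for 6.41% and 4.06%. Of the 30 called members, 20 showed this separation.

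This count depended on which samples were used. Without caput replicate 1 and corpus replicate 1, an alternative added after seeing the data, 9 members were called, 8 higher and 1 lower in caput, and 3.80% of all sites. Those 9 are 3.86% of the members, close to the share of all sites. Leaving out only caput replicate 1 gave 10 calls (4.29% of members, 4.10% of all sites) and leaving out only corpus replicate 1 gave 19 (8.15% and 8.69%). Leaving out corpus replicate 2, the highest of the corpus samples, gave 64 (27.5% and 11.6%). Without caput replicate 2 the count was 50 (21.5% and 13%), and without caput replicate 3 it was 53 (22.7% and 13%). With all samples, the called members were 16 of 118 intergenic, 7 of 41 intronic, 4 of 10 exonic and 3 of 64 promoter members. Over the covered autosomal sites, the shares called in either direction were 12.3%, 9.72%, 14.1% and 6.74% in the same order. In caput against corpus, limma (pseudo-percent of 1) and a model with an overdispersion term each called 0 members and 0 of the 14149 sites. They also called 0 members in the comparisons with testis. Of all sites, limma called 0.0848% there for caput and 0.0212% for corpus, and the overdispersion term called 0.

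Caput was also compared with testis, whose samples took part in the choice of members. These calls therefore describe the members and are no independent test of them. Of the 233 members, 61 (26.2%) were higher in caput and 9 (3.86%) lower, 70 in all (30.0%), where 11.5% of all sites were higher, 5.25% lower and 16.8% called. The less steady intermediate sites had a similar share, 179 of 607 (29.5%). The differences of the called members ranged from 25.2 to 50.7 points upward and reached -50.1 points downward. Every caput sample was above every testis sample at 96 members and below at 23 (14.2% and 8.01% over all sites), and 62 of the 70 called members were separated in this way. Without caput replicate 1, 35 members were called, 27 higher and 8 lower, and 11.9% of all sites. Of these 35, 33 were also called with all samples. The count rose to 96 without caput replicate 2 (41.2% of members, 19% of all sites) and to 107 without caput replicate 3 (45.9% and 19.5%).

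In corpus against testis, 10 members (4.29%) were called, 5 higher and 5 lower, where 2.69% of all sites were higher, 1.27% lower and 3.96% called in either direction. Every corpus sample was above every testis sample at 30 members and below at 24, beside 7.10% and 3.98% of all sites. Without corpus replicate 1 the count was 12 (4.48% of all sites), and without corpus replicate 2 it was 32 (13.7% of members, 4.83% of all sites). With all samples, the share of members called was close to that of the table, and of the 607 less steady intermediate sites 53 (8.73%) were called. Both of these comparisons use the same testis samples, which took part in the choice, so the counts are descriptions only.

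The 4 members with the largest rise from the mean of the testis samples to the mean of the caput samples are described first, and the differences printed are those of the pooled reads, which would rank some members differently. Members named here and below for their largest rise or fall were picked on that same change. Their p-values are therefore no independent test. The site at chr8:46300366, 1235 bp from the start of the non-coding RNA gene Gm39168 and counted as its promoter, had 44.8%, 33.3% and 50% in testis, 95.8%, 95.5% and 93.8% in caput, 69.2%, 65.7% and 81.1% in corpus, with 35.0%, 34.6% and 28.9% in cauda. All caput samples were above all others, the corpus samples lay between, and no testis or cauda sample exceeded 50%. With 16 to 45 reads per sample the 95% Wilson interval of the lowest caput level was 71.7% to 98.9% and that of the highest testis level 35.5% to 64.5%. The pooled caput level was 50.7 points above testis (adjusted p = 1.02e-13, logistic regression) and the pooled corpus level 27.9 points above (adjusted p = 0.000768).

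A coding exon of Zfp180, which encodes a zinc finger protein, held a member at chr7:24105638 with 39.5%, 43.9% and 58.3% in testis and 78.6%, 100% and 95.8% in caput. Its corpus levels were 42.9%, 58.0% and 82.9% and its cauda levels 54.3%, 33.3% and 46.9%, so the corpus samples spanned the gap between the groups. Here caput replicate 1, with 14 reads, was the lowest caput sample (interval 52.4% to 92.4%). The caput level was 45.9 points above testis (adjusted p = 1.31e-10, logistic regression) and 29.4 above corpus (adjusted p = 3.82e-05).

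The intergenic member at chr3:47965423, whose nearest annotated gene is the pseudogene Gm7977, had 46.7%, 34.5% and 54.5% in testis, 100%, 84.6% and 75.7% in caput, 64.3%, 60% and 27.3% in corpus, with 56.2%, 48.7% and 36.4% in cauda. The last corpus level came from 11 reads (interval 9.75% to 56.6%). In an intron of Gpr158, which encodes a G protein-coupled receptor of the nervous system, the member at chr2:21413203 had 39.0%, 34.8% and 29.0% in testis, 88.0%, 67.2% and 69.0% in caput, 32.6%, 50% and 76.0% in corpus, with 30.8%, 28.9% and 35.8% in cauda. Both were higher in every caput sample than in every testis and cauda sample, by 44.1 points (adjusted p = 3.70e-11, logistic regression) and 38.9 points (adjusted p = 1.50e-30) in the pooled reads of caput and testis, and their corpus samples were widely spread.

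Falls were fewer and some were as large. In an intron of Diaph1, which encodes a formin that builds actin filaments, the member at chr18:37880094 had 64.2%, 60.6% and 56.3% in testis and 66.2%, 62.1% and 54.4% in cauda, but 2.70%, 16.9% and 5.13% in caput and 6.25%, 24.7% and 29.4% in corpus. With 37 to 104 reads, the highest caput interval ended at 27.8% and the lowest testis interval began at 46.7%. It was the only member called lower in both caput (difference -50.1 points, adjusted p = 4.53e-24, logistic regression) and corpus (-37.7 points, adjusted p = 2.57e-15), and every caput and corpus sample was below every testis and cauda sample.

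At chr1:181232835, an intergenic member whose nearest gene is the non-coding RNA A430110L20Rik, the caput levels were 0%, 37.0% and 14.3%, below the 59.1%, 60.4% and 72.7% of testis and the 44.1%, 51.7% and 43.5% of cauda. The 0% rested on 16 reads, which allows a level of up to 18.8%. Corpus had 31.8%, 40.5% and 42.6%, all below all testis samples. The caput difference was -42.5 points (adjusted p = 3.46e-08, logistic regression).

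Of the 4 largest falls by group means, 2 lay together. An intron of Susd1, a gene for a protein with sushi domains, held these 2 and another, 3 members within 16 bp at chr4:59360926-59360941, 2041 to 2056 bp from the gene's start, among 6 sites of the table within 100 bp. Their mean level was 46.8%, 64.1% and 67.1% in testis, 7.88%, 30.6% and 19% in caput, 45.7%, 37.2% and 39.8% in corpus, with 63.7%, 41.4% and 45.8% in cauda. All caput samples were below all other samples, and the corpus samples overlapped with cauda. All 3 members were called lower in caput than in testis, with differences of -39.1, -35.7 and -44.1 points (adjusted p = 7.72e-21, 1.33e-18 and 1.01e-25, logistic regression), and none was called in corpus. They lie on the same fragments, so they are not separate observations.

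Corpus had its own largest changes. In an intron of Fstl5, which encodes a secreted follistatin-like protein, the member at chr3:76506431 had 87.5%, 83.3% and 70.1% in corpus, above the 51.9%, 38.3% and 41.0% of testis and the 33.6%, 45.2% and 52.9% of cauda, while its caput samples were split, at 75.8%, 81.2% and 43.6%. A coding exon of Vit, which encodes the extracellular matrix protein vitrin, held a member at chr17:78605468 with 100%, 68.8% and 83.3% in corpus, 51.7%, 51.4% and 59.0% in testis, 87.5%, 85.2% and 51.6% in caput and 53.3%, 65.2% and 41.0% in cauda. These members were higher in every corpus sample than in every testis sample, by 35.8 points (adjusted p = 6.47e-14, logistic regression) and 28.3 points (adjusted p = 0.00021), although corpus replicate 1 had only 16 and 22 reads.

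In the other direction, the intergenic member at chr4:28176846, nearest to the pseudogene Gm11911, had 0%, 43.7% and 22.9% in corpus, 37.6%, 43.1% and 45.5% in caput, 63.8%, 66.8% and 61.4% in testis and 53.9%, 46.1% and 53.0% in cauda. Caput replicates differed little here, the corpus replicates differed widely, and all 6 lay below testis. The 0% of corpus replicate 1 came from 47 reads, which allows up to 6.38%. The corpus difference was -34.4 points (adjusted p = 3.47e-17, logistic regression).

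The 4 members with the smallest range over the 12 samples still varied. The smallest range over the samples was 17.9 points, at the intergenic site chr15:94026055 nearest to the non-coding RNA Gm30564, with 42.5%, 48.9% and 43.8% in testis, 33.3%, 51.2% and 47.9% in caput, 40.8%, 36.5% and 40.2% in corpus, with 36.6%, 40.3% and 45.2% in cauda. It was read 63 to 212 times per sample, and its lowest level, in caput replicate 1, had an interval of 22.9% to 45.6% that overlapped with those of the other samples. A promoter site of the zinc finger gene Zfp106 at chr2:120562459 ranged over 18.6 points, from 40.7% in caput replicate 2 to 59.2% in corpus replicate 1, with 76 to 325 reads. The intervals of caput replicate 2 (33.8% to 47.9%) and corpus replicate 2 (51.0% to 65.6%) did not overlap. It lies in a repeat, and the 31 bp around it occur 3 times in the genome, so its reads may mix copies.

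The next were the intergenic member at chr1:65625763, nearest to the pseudogene Gm8805, with a range of 21.7 points, and the member at chr3:59767592 in the pseudogene Gm5539, 317 bp from its start, with a range of 23.1 points. Gm8805 had 38.8%, 29.7% and 43.2% in testis, 48.6%, 49.0% and 50.9% in cauda, 45.0%, 41.7% and 51.1% in caput and 43.6%, 37.5% and 51.4% in corpus. Gm5539 had 65.9%, 68.9% and 68.4% in testis, 61.0%, 56.6% and 59.4% in cauda, 62.5%, 78.5% and 66.7% in caput and 77.8%, 64.0% and 79.7% in corpus. At Gm5539 every cauda sample was below every caput and corpus sample, and 3 levels were above 75%. None of these 4 members was called in any comparison.

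Chained at up to 100 bp, the 233 members formed 196 loci, of which 168 held 1 member, 20 held 2 and 8 held 3 or 4. Members of a locus are read from the same fragments, so a locus is closer to 1 observation than its members are. The largest, 4 members within 39 bp at chr14:107690338-107690376, intergenic and nearest to the pseudogene Gm9335, averaged 55.7%, 53.3% and 51.3% in testis, 93.8%, 87.4% and 64.3% in caput, 58.8%, 62.3% and 69.2% in corpus, with 56.3%, 44.5% and 63.2% in cauda, at 158 to 324 reads per site. Caput replicates 1 and 2 were above all other samples, caput replicate 3 lay among corpus, and 3 of the 4 members were called higher in caput than in testis.

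At chr1:136734357-136734391, in a repeat nearest to the small RNA gene Gm22132, 3 members averaged 88.6%, 67.5% and 63.3% in caput, 37.0%, 61.9% and 49.8% in corpus, 49.0%, 47.3% and 54.0% in testis and 52.4%, 42.8% and 30.9% in cauda. All caput samples were above all others there, and 2 of the members were called higher in caput than in testis. The intergenic locus at chr4:123999387-123999423, nearest to the pseudogene Gm12902, reached 74.1% in caput replicate 1 but 46.7% and 48.8% in replicates 2 and 3, within the 39.9% to 48.2% of testis or just above it. None of its 3 members was called.

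Of the 8 loci with 3 or more members, that with the widest spread over the 12 samples lay 2752 to 2756 bp from the start of Hcrtr2, which encodes an orexin receptor. Its 3 members at chr9:76326608-76326612 averaged 47.7%, 45.6% and 28.9% in testis and 31%, 50.2% and 47.8% in cauda, but 93.2%, 36.8% and 80.2% in caput and 1.65%, 58.7% and 19.2% in corpus. The levels within caput and within corpus thus ran across most of the scale. All 3 members were called higher in caput than in testis and than in corpus, though caput replicate 2 lay within the testis values. The last of the 3 had 0% of 41 reads in corpus replicate 1, which allows up to 7.32%, and 94.4% of 54 reads in caput replicate 1 (interval 84.9% to 98.1%).

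Other loci had lower caput means than testis means. Gria1, which encodes a glutamate receptor subunit of synapses, carried 3 members 15 to 42 bp past its start, in the UTR, at chr11:57011825-57011852. They averaged 40.2%, 33.3% and 37.7% in testis, 7.69%, 9.70% and 23.9% in caput, 4.90%, 30.4% and 4.93% in corpus, with 36.3%, 44.4% and 48.8% in cauda. Every caput and corpus sample was below every testis and cauda sample, and each of the 3 differences from testis stayed under 25 points in the pooled reads (-24.9, -23.1 and -19.5 points in caput), so none was called.

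The non-coding RNA BC051077 had 3 promoter members at chr5:117314428-117314455 with means of 50.5%, 54.1% and 51.8% in testis, 21.7%, 26.8% and 33.2% in caput, 32.2%, 33.7% and 40.3% in corpus, with 38.9%, 37.7% and 39.5% in cauda. The caput samples were below all testis and cauda samples, and 1 of the members was called. The intergenic locus at chr9:98962045-98962060, nearest to the non-coding RNA Foxl2os, averaged 33.3%, 26.6% and 37.2% in caput, 41.4%, 52.9% and 48.8% in corpus, 50.8%, 53.1% and 33.5% in testis and 44.2%, 52.7% and 35.2% in cauda, with no call.

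Among the loci of 2 members, the promoter of Gja5, which encodes the gap junction protein connexin 40, is the only one with both members called in corpus against testis, and it was picked after its values were seen. Its members at chr3:97032124-97032129 averaged 52.6%, 63.8% and 60.2% in testis, 8.39%, 26.6% and 51.3% in caput, 37.6%, 39.7% and 21.6% in corpus, with 52.3%, 63.7% and 51.6% in cauda. The corpus samples were below all testis and cauda samples, and the caput samples were spread from below the corpus levels to near the cauda levels.

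Sequence around 8 of these loci is given to show the CpG setting in which sites rose, fell or varied least. The runs are from GRCm38, plus strand, 5′ to 3′, with 30 bases on either side of the measured cytosines, and capitals mark the CpG of each member.
Rose in caput, Gm39168, chr8:46300336-46300396: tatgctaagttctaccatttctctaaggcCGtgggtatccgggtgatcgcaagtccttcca
Rose in caput, Zfp180, chr7:24105608-24105668: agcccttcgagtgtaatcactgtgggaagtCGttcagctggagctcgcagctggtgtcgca
Rose in caput, Gm9335, chr14:107690308-107690406: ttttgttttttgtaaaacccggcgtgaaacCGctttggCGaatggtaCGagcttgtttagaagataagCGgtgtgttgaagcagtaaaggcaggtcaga
Spread in caput and corpus, Hcrtr2, chr9:76326578-76326642: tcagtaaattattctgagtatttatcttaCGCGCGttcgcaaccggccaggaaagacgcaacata
Rose in corpus, Fstl5, chr3:76506401-76506461: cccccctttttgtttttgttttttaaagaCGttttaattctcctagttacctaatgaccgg
Fell in caput, Susd1, chr4:59360896-59360971: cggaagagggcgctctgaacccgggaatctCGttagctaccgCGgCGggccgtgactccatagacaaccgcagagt
Fell in corpus, Gm11911, chr4:28176816-28176876: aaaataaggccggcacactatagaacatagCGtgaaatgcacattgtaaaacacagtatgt
Smallest range, Gm30564, chr15:94026025-94026085: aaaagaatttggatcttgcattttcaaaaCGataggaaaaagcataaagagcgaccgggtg
The Susd1 run had 9 CpGs in 76 bases and a GC content of 63.2%, the Gm9335 run 6 CpGs in 99 bases and 44.4%, and the Gm11911 run 2 CpGs in 61 bases and 37.7%. The 3 Hcrtr2 members are neighbouring CpGs with no base between them.

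Each of these runs but that of Zfp180 held the letters CCGG, the same on both strands, at which RRBS fragments end. Within 100 bp to either side, 225 of the 233 members (96.6%) had at least 1 CCGG, beside 99.6% of all 14149 sites. None of the members was itself the CpG of a CCGG, and only 35 sites of the whole table were, so the table measures CpGs beside the cut.

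The members were less often in promoters, and more often between genes, than the sites they were drawn from. By GENCODE annotation of GRCm38, with a promoter reaching 2 kb to either side of a transcription start site, 64 members (27.5%) were in promoters, 10 (4.29%) in exons, 41 (17.6%) in introns and 118 (50.6%) intergenic. Of the 9289 covered autosomal sites, 39.4% were in promoters, 6.47% in exons, 23.8% in introns and 30.3% intergenic. The low sites were in promoters in 80.5% of cases and the high sites in 13.3%, while the less steady intermediate sites, at 30.5% promoter and 42.8% intergenic, came nearest to the members. The median distance of a member to the nearest start site was 8282 bp, beside 4903 bp for covered autosomal sites. These shares are descriptions and were not tested.

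In CpG density the members were closer to the high sites than to the low sites. Covered autosomal sites as a whole were also near, with a median of 6 CpGs (quartiles 4 and 9) and a GC content of 48.8%. A member had a median of 5 CpGs within 100 bp to either side (quartiles 4 and 7) and a GC content of 46.8%, where high sites had 5 CpGs and 46.3%, less steady intermediate sites 6 and 48.3%, and low sites 9 and 53.2%. On the plus strand lay 124 of the members and on the minus strand 109. By chromosome, the share of covered sites that were members ran from 0.955% on chromosome 19 (3 members) to 3.95% on chromosome 14 (16 members), with 21 members, the highest count, on chromosome 7.

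Caput levels varied with location. Promoter members averaged 65.1%, 54.4% and 54.1% in caput replicates 1, 2 and 3 and 44.4%, 53.0% and 47.4% in corpus. Intergenic members averaged 76.2%, 62.0% and 60.7% in caput and 49.2%, 59.2% and 51.4% in corpus. The 41 intronic members averaged 69.3%, 62.7% and 55.3% in caput, and the 10 exonic ones 84.5%, 73.7% and 65.3%. Each caput sample was lowest in promoters and highest in exons. The testis means already differed, at 48.4% in promoters, 51.2% between genes, 53.6% in introns and 53.1% in exons, so the order of the caput levels is not an order of change.

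The direction of the caput calls also differed by location. Of the 64 promoter members, 14 were called higher and 1 lower in caput than in testis. The counts were 36 and 1 of 118 for intergenic, 2 and 0 of 10 for exonic, and 9 and 7 of 41 for intronic members, so that 7 of the 9 falls were in introns, at 5 loci, since 3 of them are the Susd1 members. Over the covered autosomal sites, 346 and 96 of 3663 promoter sites, 420 and 186 of 2813 intergenic sites, 88 and 28 of 601 exonic sites and 197 and 207 of 2212 intronic sites were called higher and lower. Introns were thus the class with the largest share of falls in that larger set too.

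Repeats held 63 members (27.0%), beside 18% of covered autosomal sites. The repeat members averaged 82.1%, 64.7% and 62.1% in caput and 52.1%, 63.0% and 55.6% in corpus, where the 170 others averaged 68.6%, 59.0% and 56.7% and 47.0%, 55.5% and 48.2%. All 20 calls of repeat members against testis in caput were rises, whereas the others had 41 rises and 9 falls. In covered autosomal repeats as a whole, 189 sites were higher in caput and 46 lower.

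Some members may not be single places in the genome. For 22 members (9.44%) the 31 bp centred on the site occur more than once in GRCm38, beside 4.61% of covered autosomal sites and 1.19% of low sites. Of the 22, 12 had 2 or 3 copies and 4 had more than 100, and 16 lay in repeats. A site near Cyp3a41a at chr5:145725758 had 4341 copies and 68.1% in caput replicate 1. Reads of such sites may mix copies with different levels. The 211 members with a single copy in GRCm38 averaged 71.9%, 60.2% and 58.2% in caput and 47.9%, 57.1% and 50% in corpus, close to the whole set. Copies absent from that assembly were not counted, so some of the 211 may also mix copies. They include the member at chr17:39848782, 45 bp from the start of the ribosomal RNA gene CT010467.1.

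Where members had other sites of the table close by, most of those were at an intermediate level too. Of the 233, 125 had another site of the table within 50 bp, and 80 had 1 or more such neighbours that were not members, 104 neighbours in all. Of these, 72 had a testis mean from 25% to 75%, 12 were at 80% or more and 8 at 20% or less, and the median was 52.6%. A member and its neighbour differed by a median of 13.2 points in testis (Pearson r = 0.377 over 121 pairs, which share reads). Most of these neighbours were thus at an intermediate level themselves and missed the rule by reads, band or range. The same share was not computed for the neighbours of covered sites in general.

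None of the members was at a listed imprinted gene. Of 233 members, 0 lay in or within 2 kb of the body of a listed imprinted gene, which allows a share of up to 1.29%, and the count was also 0 within 10 kb. Of the 9289 covered autosomal sites only 22 (0.237%) lay within 2 kb of such a gene, so the table held few sites where this could have been seen. The 22 sites were at 10 genes or gene pairs. Of these sites, 15 were under 10% in all 6 testis and cauda samples and 4 above 90%. Imprinted regions away from the listed genes were not examined. An intergenic member at chr1:63226343, 11800 bp from the start of Gpr1, had 59.4%, 62.8% and 64.8% in testis. Its levels were 77.7%, 56.5% and 48.6% in caput, 56.0%, 63.1% and 87.8% in corpus, with 63.7%, 60.9% and 69.2% in cauda. Whether it lies in an imprinted region was not tested.

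The single site at a listed imprinted gene with an intermediate mean was at Zim1, an imprinted zinc finger gene, at chr7:6678178. Its levels were 31%, 41.4% and 13.5% in testis and 32.3%, 17.9% and 38.6% in cauda. It missed the rule because 2 of these were under 25%. It had 95%, 51.9% and 40.8% in caput and 53.8%, 37.0% and 51.3% in corpus. At the site of H19, a gene imprinted by a mark from the father, the levels were 97.8%, 96.7% and 92.8% in testis, 87.1%, 93.2% and 93.7% in caput, 97.1%, 94.1% and 89.3% in corpus, with 98.9%, 98.4% and 97.1% in cauda. All 12 samples were highly methylated there, and caput replicate 1 was the lowest.

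The other gene lists held few members. The list of genes for DNA methylation and its removal had none, beside 9 covered sites. The loci singled out in the study's paper gave the 3 Susd1 members of 17 covered sites, and since they had been picked from these same samples, their fall is not an independent observation. The germline list gave 1 member of 26 covered sites, at chr11:87405990, 925 bp from the start of Tex14, a gene needed for the bridges between dividing germ cells. It had 39.1%, 37.2% and 31.8% in testis, 93.1%, 55.7% and 66.7% in caput, 45.9%, 50% and 70.2% in corpus, with 35.8%, 31.1% and 37.7% in cauda. All caput and corpus samples were above all testis and cauda samples, and it was called higher in caput (29.1 points, adjusted p = 3.45e-07, logistic regression).

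By gene family, within 2 kb of the gene body, the members included 2 sites at zinc finger genes (Zfp106 and Zfp180), of 129 covered, 1 at a protocadherin (Pcdh9), of 29, and none at Hox, histone, ribosomal protein or olfactory and vomeronasal receptor genes, of 34, 13, 26 and 29 covered. Gene models without a formal name had 44 members (18.9%), close to their 21.3% of covered sites.

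Promoters of germline genes, most of which are unmethylated in sperm, were read to check the labelled cell type. Of 64 listed genes, 10 had sites in their promoters, 21 sites in all, with 510 to 1237 reads per sample. Their summed level was 19%, 12.0% and 10.5% in testis, 62.9%, 46.1% and 47.1% in caput, 22.5%, 33.8% and 28.5% in corpus, with 9.03%, 10.7% and 11.9% in cauda. Dazl, an RNA-binding protein of germ cells and the list's most covered gene, had 10.7%, 2.14% and 2.88% in testis, 76.6%, 64.0% and 46.0% in caput, 34.7%, 25.5% and 11.7% in corpus, with 2.35%, 5.88% and 3.16% in cauda. D1Pas1, Smc1b and Tssk6 were at 0% in all 3 testis samples. In caput, Prdm9 and Tssk6 had 0% in all 3 samples and Smc1b 2.50%, 1.76% and 2.16%, while D1Pas1 had 90%, 48.7% and 71.1%. Mei1, at 97.1% or more in every testis and cauda sample, had 77.3%, 96.4% and 90.4% in caput.

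Promoters of genes with a maternal imprint, unmethylated in sperm, were highest in caput, while their corpus samples overlapped with testis. At 13 sites of 4 genes out of 23 listed, the summed level was 0.647%, 1.07% and 4.45% in testis, 20.8%, 7.21% and 10.6% in caput, 0.529%, 6.84% and 3.74% in corpus, with 0%, 0% and 2.27% in cauda, and Mcts2 had the highest level of the 4, 68.1% in caput replicate 1, while Gab1 had 0% in all caput samples and 2.53%, 1.83% and 3.23% in testis. The 5 sites at promoters of 2 of 4 genes with a paternal imprint summed to 24.4% to 58.7% in every sample, but this mixed the H19 site with 4 sites of Rasgrf1 that were at 3.57% or less, outside its imprinted region. In the germline and maternal lists caput replicate 1 had the highest level of the 12 samples, as it had for the mean of the members. The part of these promoter levels in the results on the members was not tested.

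The range limit of 30 points was a sharp boundary in a continuous set. In all, 300 covered autosomal sites were between 25% and 75% in the 6 samples, and 67 of them were left out by the range. The widest members were the Susd1 site at chr4:59360926, with a range just under 30.0 points (50.5% to 70.8% in testis, 40.8% to 66.1% in cauda), the site at chr5:146998972 near Lnx2 at 29.9 points, and the site at chr13:12889947 near Gm18878 at 29.9 points. Just outside were chr13:71053261 near Gm38191 at 30.0 points, chr14:51125906 at Rnase6 at 30.1 points and chr17:50420151 near AC060761.1 at 30.1 points. The site near Gm38191 had 100%, 74.5% and 73.3% in caput, the Rnase6 site 84.0%, 34.4% and 39.3%, and the last 36.1%, 42.4% and 30.4%. The member near Lnx2 had 84.1%, 55.4% and 77.5% in caput and that near Gm18878 87.5%, 63.6% and 72.0%.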

How the data were processed

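The deposited table holds, for each CpG site and sample, the counts of all reads, methylated reads and unmethylated reads, not normalized. The submitters' notes name FastQC, Trim Galore 0.4.1, Bismark 0.16.1, methylKit and GRCm38, and the authors aligned bisulfite reads to that build. All 36 per-sample columns were mapped by their labels, and every site lies on a CpG and has at least 10 reads in each sample. The 6 deposited lists of differentially methylated sites and regions hold the authors' own differences, p-values and q-values and were not used.

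The level was 100 times methylated reads over all reads. Logistic regression on reads pooled per group, with a likelihood-ratio test and Benjamini-Hochberg adjustment, was run over all 14149 sites in Python 3.11.15 (scipy 1.17.1), after being tested on simulated data. Alternatives were a replicate block, an overdispersion term, limma 3.58.1 with a pseudo-percent of 1 or 5, other thresholds and leaving out each replicate. An exact permutation test of 3 against 3 samples cannot give a p below 0.1 and was not used. Location came from GENCODE, repeats from the soft-masked genome. Named sites are members at listed genes, those with the largest changes or smallest range, loci of 3 or more members, and those nearest the range limit. Outside these rules, Gja5 was picked after its values were seen and the site near Cyp3a41a for its copy number. The sites near Gpr1 and at CT010467.1 were picked for their annotated gene. Members and lists were chosen with earlier results of these data known. A C-to-T difference between the strain's DBA/2 alleles and the reference would count as unmethylated, and this was not tested.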

Additional observations from a re-analysis of the deposited data

Results flagged for a closer look

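Caput was tested directly against corpus by logistic regression with Benjamini-Hochberg adjustment over all sites, and 30 of the 233 members (12.9%) were called, all higher in caput. Of all sites, 9.51% were called in either direction and 6.86% higher in caput. Of the 607 less steady intermediate sites, a larger share than of the members was called, 122 (20.1%), with 98 higher and 24 lower in caput. At 20 of the 30 members every caput sample was above every corpus sample. Without replicate 1 of both segments 9 members (3.86%) and 3.80% of all sites were called. limma (pseudo-percent of 1) and the overdispersion term called 0 members and 0 of all sites.

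The sex chromosomes, outside the comparisons of the members, held 4 sites that met the same limits on reads, level and range, of 154 covered there. On chromosome X these were chrX:25347652 near Gm1989, with 69.8%, 65.5% and 59.8% in testis and 94.8%, 63.8% and 61.8% in caput, and chrX:73822823 in Pdzd4, with 40.8%, 40.3% and 47.8% in testis and 86.2%, 75.9% and 37.3% in caput. On chromosome Y they were chrY:40029753 near Gm28371, with 38.6%, 54.8% and 54.3% in testis and 65.1%, 69.2% and 48.3% in caput, and chrY:90744783 near Mid1-ps1, with 58.7%, 52.9% and 50.3% in testis and 65.4%, 67.7% and 31.2% in caput. The 31 bp around the sites occur 37, 13, 1 and 2 times in GRCm38. All 4 were named after their values were seen.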

How the results depend on the processing

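The labels do not say whether same-numbered samples share a pool of mice, and the paper speaks of paired comparisons. Over covered autosomal sites, the deviations of same-numbered samples from their group means had correlations of -0.120 to 0.0513, none over 0.1. The unlike pair of caput replicate 1 and corpus replicate 2 had 0.177. Such values cannot decide on pairing, since the replicates scatter beyond read sampling. With the replicate number as a block, the counts were 70 (caput against testis), 10 (corpus against testis) and 30 (caput against corpus), the same as without it.

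Leaving out 1 replicate at a time moved the counts to 35 to 107 members for caput against testis, 8 to 32 for corpus against testis and 10 to 64 for caput against corpus, lowest in the first and last without caput replicate 1. Over all sites the shares called were 11.9% to 19.5%, 3.94% to 4.83% and 4.10% to 13%. Without caput replicate 1 and corpus replicate 1, chosen after seeing the data, the last was 9 (3.86% of members, 3.80% of all sites). The overdispersion term and limma with a pseudo-percent of 1 or 5 gave 0 in all 3 comparisons. With a difference above 40 points the counts were 6 (2.58% of members, 8.76% of all sites), 0 (0.495% of all sites) and 2 (0.858% of members, 2.27% of all sites). The cause of the lower share of members at 40 points was not tested. Asking for 20 or more reads at a site in each sample compared made the last 17, of 157 members tested (10.8%, beside 8.62% of the sites tested).

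The number of members was 107 with a range under 20 points and 139 with levels from 30% to 70%. Leaving out 1 sample moved the members inside the band to 44 to 133 in caput and 150 to 162 in corpus. The promoter share was 17.6% with promoters of 1 kb, beside 32.8% of the covered autosomal sites. The caput and corpus means moved by less than the spread between replicates in every alternative run, from 59.3% to 68.6% and from 49.3% to 53.8%.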

Other observations

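The members were chosen on levels in 6 of the samples, so a comparison with testis uses values that took part in the choice. Caput against corpus does not, although it covers the same chosen members. The printed differences and their p-values rest on pooled reads of 3 samples per group that scatter beyond read sampling, and the test on pooled reads takes no account of that scatter. Many members lie in the same fragments or in repeated sequence. A level of intermediate methylation in a pool cannot be split here into cells, alleles or copies that differ, since the table gives counts per site and not per read. Genetic differences within the hybrid strain were not examined, and sites without enough reads were not analysed here.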
